A study of Mus musculus with 5 samples.

Results

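Potassium channel subunit genes were examined as a family in mouse hearts taken after a short ischemia and reperfusion. Members were all gene symbols that start with Kcn among array probes annotated to exactly 1 symbol, with the brightest probe kept per symbol. This gave 90 of 22180 genes. Of the 90, 88 encode channel subunits or their regulators, and 2 (Kcnq1ot1 and Kcnd3os) are antisense RNAs named after a channel gene. The antagonist group held 3 hearts of wild-type C57Bl6J mice. These mice had received a REV-ERB alpha antagonist intraperitoneally (the labels give 10 µM) 4 h and 1 h ahead of the perfusion. REV-ERB alpha is a nuclear receptor that represses genes of the circadian clock. The sham group held 2 hearts of the same strain and genotype without the antagonist. All hearts were collected at zeitgeber time 12, perfused outside the body on a Langendorff apparatus for 20 min, held without flow for 20 min and reperfused for 20 min, so hearts without ischemia are not part of either group. The labels name neither the compound nor a vehicle, and whole hearts hold several cell types. In such bulk tissue, fewer cells of a type and less RNA per cell cannot be told apart.

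Potassium channels let potassium leave the heart cell and so end each action potential and set the resting potential. Voltage-gated (Kv) pores, assembled with KChIP, KCNE or beta partners, carry the transient outward and delayed rectifier currents. Inward rectifiers (Kir) hold the resting potential, open when ATP falls or answer to vagal input, K2P channels carry leak currents, and small-conductance (SK) channels open on calcium. Mouse ventricle repolarises mainly through the transient outward and ultrarapid currents. In mouse heart, Kcnip2 is known to vary with the time of day under the control of the factor KLF15.

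Values are log2 expression values made with RMA (robust multi-array average) on 5 Affymetrix arrays, 1 heart each, with array medians between 3.92 and 3.95. The 9 heart muscle markers averaged 11.5 on every array. Markers of atrial muscle, fat and mesothelium were high on antagonist replicate 2: 7 of 8 atrial, 5 of 6 fat and 5 of 5 mesothelial markers had their highest value there. The atrial list stood at a mean log2 level of 9.61 against 7.42 and 7.79 on the other antagonist arrays and 7.30 and 7.57 on the sham arrays. Sham replicate 1 was the array farthest from the other 4 for 33.6% of the 15294 genes tested and for 17 of 73 potassium channel genes (23.3%). Among these it did not stand out, since antagonist replicate 3 was farthest for 17 as well and sham replicate 2 for 15.

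By array level the family had a few bright members. The median log2 level over the 90 genes was 4.19, against 4.49 over all genes, and 12 members (13.3%) were at or above 6, against 28.5% of all genes. At or above 4 the shares were nearly alike, 58.9% of members and 58.3% of all genes, as were those at or above 10, 1.11% and 1.19%. Brightness differs between probe sets, so the order below is one of array values and not of transcript amounts. Kcna4, which encodes the slow transient outward pore Kv1.4, was highest at 11.06. After it came Kcnd2 (8.51), the fast transient outward pore Kv4.2, Kcnj8 (8.20), the Kir6.1 pore of ATP-sensitive channels of vessels, and Kcnj3 (8.18), the Kir3.1 subunit of the acetylcholine-activated channel. Next were Kcnip2 (7.13), the KChIP2 partner of Kv4 pores, Kcnj11 (7.05), the Kir6.2 pore of cardiac ATP-sensitive channels, Kcnj2 (6.70), the Kir2.1 inward rectifier, Kcnj5 (6.62), Kcnh2 (6.60), Kcnq1 (6.52), Kcna5 (6.25) and Kcnk6 (6.15), the K2P channel TWIK-2. The list of 20 was completed by Kcnt2 (5.83), a sodium-activated channel, Kcnip3 (5.82), Kcng2 (5.76), Kcnv2 (5.76), Kcnn1 (5.64), Kcnn2 (5.52), Kcne4 (5.35) and Kcne1l (5.30). These 20 hold 5 inward rectifiers and 1 K2P gene. The K2P gene Kcnk3 was not ranked, since no probe used here was annotated to it alone; the brightest probe annotated to both Kcnk3 and Gm9899 read 7.79, which lies between Kcnj3 and Kcnip2.

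**Figure D1:**
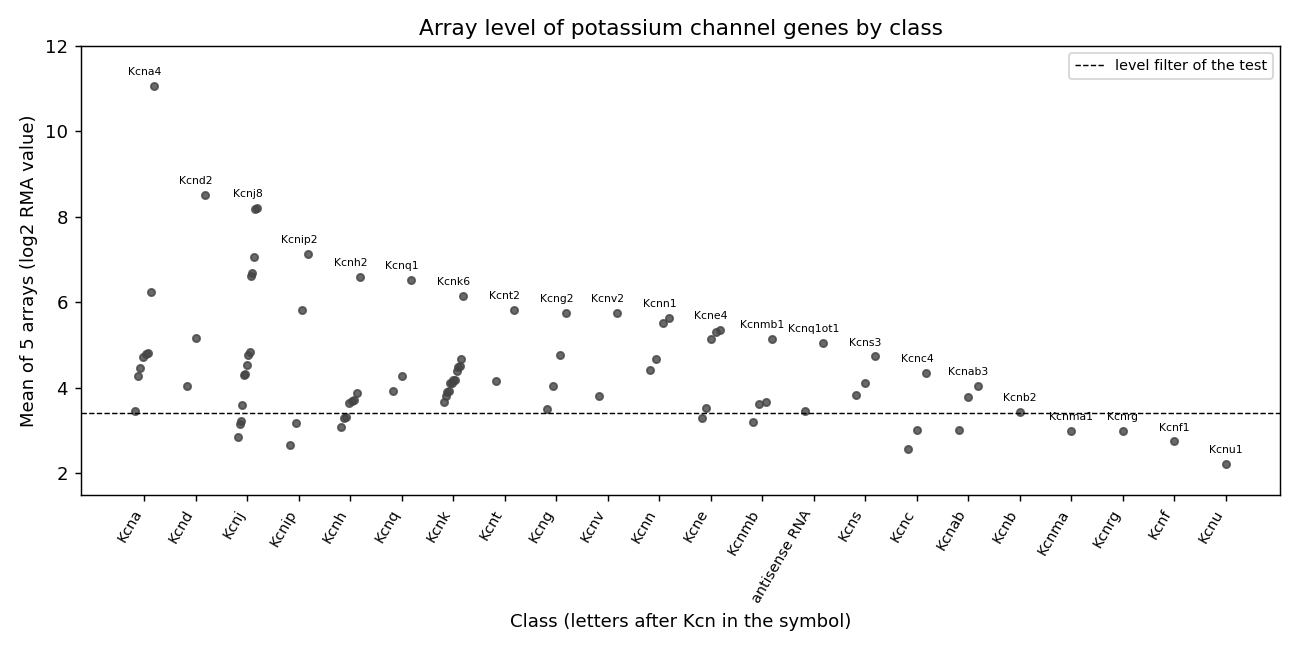
Mean log2 RMA value over the 5 arrays for each of the 90 genes (1 point per gene), by the letters that follow Kcn in the symbol, with the highest gene of each class named. The dashed line is the level of 3.42 that a gene had to reach to be tested, and Kcna4 at 11.06 stands 2.55 above the next gene.

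A second probe existed for 7 members, and for the 2 brightest of these the probes were far apart. The second probe of Kcna4 read 3.61 and that of Kcnj3 3.32, so the high rank of both genes rests on 1 probe each. Split by role, the 14 inward rectifier genes had the widest spread among the larger groups after the Kv pores. They ranged between 2.84 (Kcnj6) and 8.20 (Kcnj8), with a median of 4.66. The 26 Kv pore genes had a median of 4.16, the 13 K2P genes 4.18, with Kcnk6 highest, and the 12 calcium- or sodium-activated genes 4.29, with Kcnt2 highest. The 10 silent Kv genes, whose products modify Kv pores and form none alone, had a median of 4.08, with Kcng2 highest. The 5 KCNE genes, small single-pass partners, had a median of 5.14, and the 4 KChIP genes 4.50. The 3 cytosolic beta subunit genes lay at or below 4.06, and Kcnrg, a regulator of Kv assembly, at 2.98. Single class leaders below these were Kcnmb1 (5.14), the BK beta subunit of smooth muscle, Kcns3 (4.74), Kcnc4 (4.36), Kcnb2 (3.45), Kcnma1 (2.996), the BK pore, Kcnf1 (2.75) and Kcnu1 (2.21). Of the antisense RNAs, Kcnq1ot1 read 5.06 and Kcnd3os 3.47.

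The level filter, a mean log2 level of 3.42, was reached by 73 members, which were tested. Just inside it were Kcnb2 (3.45) and Kcna10 (3.46), and just outside Kcnh4 (3.33) and Kcne3 (3.29). The other 17 were not tested. Values on these arrays are often exactly equal, as median polish in RMA can give. Of the 73, 59 had fewer than 5 different values and 5 had the same value on every array. These 5 were Kcnn3, Kcnj9, Kcnq5, Kcnj15 and Kcnd3os, for which no difference could be measured.

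The comparison of antagonist with sham hearts asked which transcripts differ after reperfusion when a REV-ERB alpha antagonist had been given. No potassium channel gene passed: with limma and Benjamini-Hochberg adjustment over all 15294 genes, 0 of 73 members had an adjusted p under 0.05, as did 0% of all genes, and the smallest adjusted p of a member was 0.60. At an unadjusted limma p under 0.05, 3 members were lower (Kcnn2, Kcnj8 and Kcnd2) and 1 was higher (Kcna10), where 2.37% and 2.23% of all tested genes were. Groups without overlap were seen for 6 members lower in the antagonist hearts (8.22%, against 6.33% of all genes) and 3 higher (4.11%, against 6.19%), shares near those of all genes. The 6 were Kcnn2, Kcnj8, Kcnd2, Kcnk2, Kcnip3 and Kcnh3, and the 3 were Kcna10, Kcna1 and Kcnmb2. Without antagonist replicate 2, the array with high atrial and fat markers, there were 9 lower (12.3%, all genes 8.87%) and 6 higher (8.22%, all genes 8.76%). With a sham array left out, which leaves 1 for comparison, there were 17 and 20 lower and 13 and 21 higher, and 22.5% and 24.6% of all genes were lower and 19.6% and 28.1% higher. The median log2 difference, antagonist minus sham, was -0.01 over the 73 and 0.00 over all tested genes, with 38 members lower, 30 higher and 5 equal. Past 0.3 on the log2 scale were 3 members in the lower direction (all genes 2.81%), namely Kcnn2, Kcnk2 and Kcnip3, and for Kcna5 alone in the higher direction (all genes 3.17%). With 10 ways to divide 5 arrays into 3 and 2, an exact permutation test (two-sided) cannot give a p under 0.10.

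**Figure D2:**
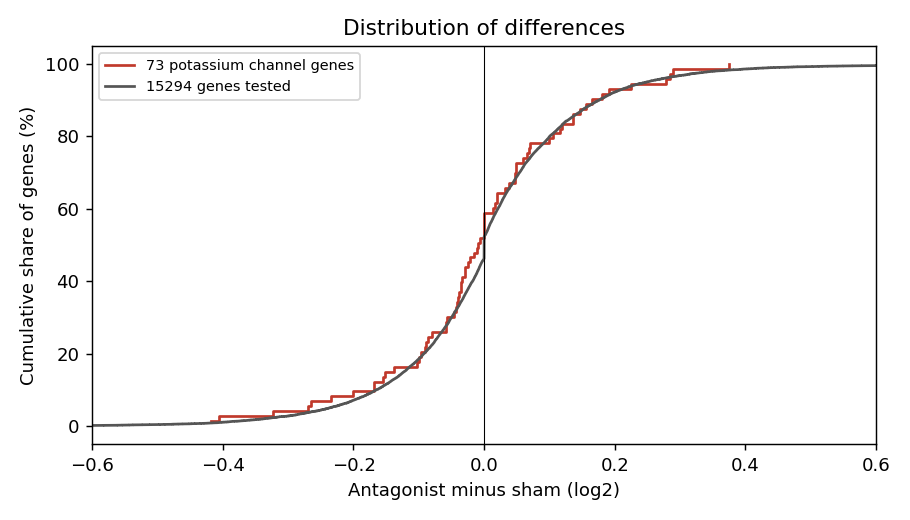
Cumulative share of genes (%) by log2 difference, antagonist minus sham, for the 73 potassium channel genes tested and for all 15294 genes tested. The curves lie close together, with medians of -0.01 and 0.00, and the members reach from -0.42 to 0.37.

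Promoters are shown for Kcnd2, Kcnj8 and Kcna10, which are 3 of the 4 members with an unadjusted p under 0.05 (that of Kcnn2, with the smallest p, was not used here), because the treatment targets a DNA-binding repressor. Each line gives the 250 bases before the RefSeq transcription start on the gene's strand, build GRCm38.p6, with capitals for the REV-ERB and ROR half-site AGGTCA on either strand. Kcnd2 lies at chr6:21215096-21215345 on the plus strand, Kcnj8 at chr6:142571615-142571864 on the minus strand and Kcna10 at chr3:107182893-107183142 on the plus strand.
Kcnd2: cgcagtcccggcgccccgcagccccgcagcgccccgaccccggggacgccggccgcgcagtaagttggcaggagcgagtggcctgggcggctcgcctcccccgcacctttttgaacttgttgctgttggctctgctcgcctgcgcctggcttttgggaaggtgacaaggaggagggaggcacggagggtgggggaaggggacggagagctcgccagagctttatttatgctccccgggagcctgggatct
Kcnj8: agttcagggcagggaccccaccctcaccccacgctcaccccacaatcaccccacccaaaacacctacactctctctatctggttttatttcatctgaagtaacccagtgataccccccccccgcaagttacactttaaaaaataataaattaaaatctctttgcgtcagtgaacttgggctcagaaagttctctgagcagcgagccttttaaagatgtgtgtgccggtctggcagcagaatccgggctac
Kcna10: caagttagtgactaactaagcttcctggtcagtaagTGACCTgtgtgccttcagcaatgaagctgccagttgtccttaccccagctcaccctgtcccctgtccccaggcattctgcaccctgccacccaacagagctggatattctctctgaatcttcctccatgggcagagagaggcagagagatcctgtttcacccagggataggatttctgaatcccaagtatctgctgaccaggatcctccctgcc
The windows of Kcnd2 and Kcnj8 hold no AGGTCA, and that of Kcna10 holds it once, on the opposite strand, with its first base 214 bases before the start. Of 32851 RefSeq promoters, 14.02% hold this half-site in the same window, and 6 of 95 promoters of 70 matched members do (6.32%). The E-box CACGTG was found in 6.32% of member promoters and 6.02% of all, and the D-box TTANGTAA in 0 of 95 and 2.06% of all, with both strands searched. A match is a description of letters and shows no binding.

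The Kv4 pores of the fast transient outward current had lower mean values in the antagonist hearts, and the gene of their partner KChIP2 had nearly the same mean in both groups; none of these differences passed the adjusted threshold. Kcnd2 measured 8.53, 8.35 and 8.33 in the antagonist hearts, against 8.60 and 8.74 in the sham hearts. Every antagonist value lay below both sham values, by as little as 0.08. The log2 difference was -0.27 ± 0.08 (limma SE, 95% interval -0.51 to -0.02), with a limma adjusted p of 0.64 and an exact permutation p of 0.2. Kcnd3, the Kv4.3 pore, measured 5.35, 4.88 and 4.98 in the antagonist hearts, against 5.41 and 5.20 in the sham hearts. Its groups overlapped, with antagonist replicate 1 between the sham arrays, and the difference was -0.23 ± 0.18. It was -0.37 without antagonist replicate 1, -0.14 without antagonist replicate 2 and -0.13 without sham replicate 1. Kcnd1, the Kv4.1 pore, differed by -0.15 and overlapped too, with -0.07 without antagonist replicate 2 and -0.08 without sham replicate 1. Kcnip2 measured 7.23, 7.14 and 7.02 in the antagonist hearts, against 6.99 and 7.28 in the sham hearts. The sham arrays enclosed all antagonist values, and the difference of -0.01 had a 95% interval from -0.35 to 0.34.

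Kcnip3, which encodes KChIP3 (also called DREAM or calsenilin), measured 5.72, 5.74 and 5.61 in the antagonist hearts, against 6.23 and 5.80 in the sham hearts. The groups did not overlap, but the difference of -0.32 ± 0.15 (limma adjusted p 0.64) was -0.11 without sham replicate 1. Kcna4 measured 11.17, 11.06 and 11.06 in the antagonist hearts, against 10.93 and 11.06 in the sham hearts. One antagonist array stood above the rest, and the difference was 0.10 ± 0.06, or 0.03 without sham replicate 1. Its dim second probe differed by -0.07.

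Among the Kv1 pores the ultrarapid delayed rectifier gene differed most. Kcna5, which encodes Kv1.5, measured 6.28, 6.28 and 6.62 in the antagonist hearts, against 5.76 and 6.28 in the sham hearts. Sham replicate 1 alone was low, and the difference of 0.37 ± 0.22 was 0.11 without it. Kcna1, the Kv1.1 pore, neighbour of Kcna5 on the chromosome and known mainly from nerve, measured 4.47, 4.80 and 4.47 in the antagonist hearts, against 4.17 and 4.41 in the sham hearts. Its groups did not overlap, with a gap of 0.05 between them and a difference of 0.29 ± 0.15 (limma adjusted p 0.64). It was 0.16 without sham replicate 1 and 0.18 without antagonist replicate 2. Kcna10, a Kv1 pore described in kidney and inner ear, was near the filter, at 3.49, 3.49 and 3.65 in the antagonist hearts, against 3.29 and 3.36 in the sham hearts. The antagonist values were all higher, by 0.23 ± 0.07 on average (limma adjusted p 0.64), and 2 of them were equal.

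Genes of the slower delayed rectifiers did not differ beyond the spread between arrays. Kcnq1, the KvLQT1 pore, measured 6.59, 6.55 and 6.38 in the antagonist hearts, against 6.50 and 6.60 in the sham hearts. Kcnh2, the ERG pore, measured 6.61, 6.59 and 6.59 in the antagonist hearts, against 6.47 and 6.75 in the sham hearts. For both, antagonist values lay between or beside the sham values, and the differences were -0.04 (95% interval -0.28 to 0.20) and -0.01 (-0.28 to 0.26). Kcne1, the minK partner of KvLQT1, measured 5.22, 5.22 and 4.87 in the antagonist hearts, against 5.22 and 5.17 in the sham hearts. Only antagonist replicate 3 stood apart, and the difference was -0.09 ± 0.14. All 4 tested KCNE genes were lower by 0.02 to 0.20 and all overlapped.

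**Figure D3:**
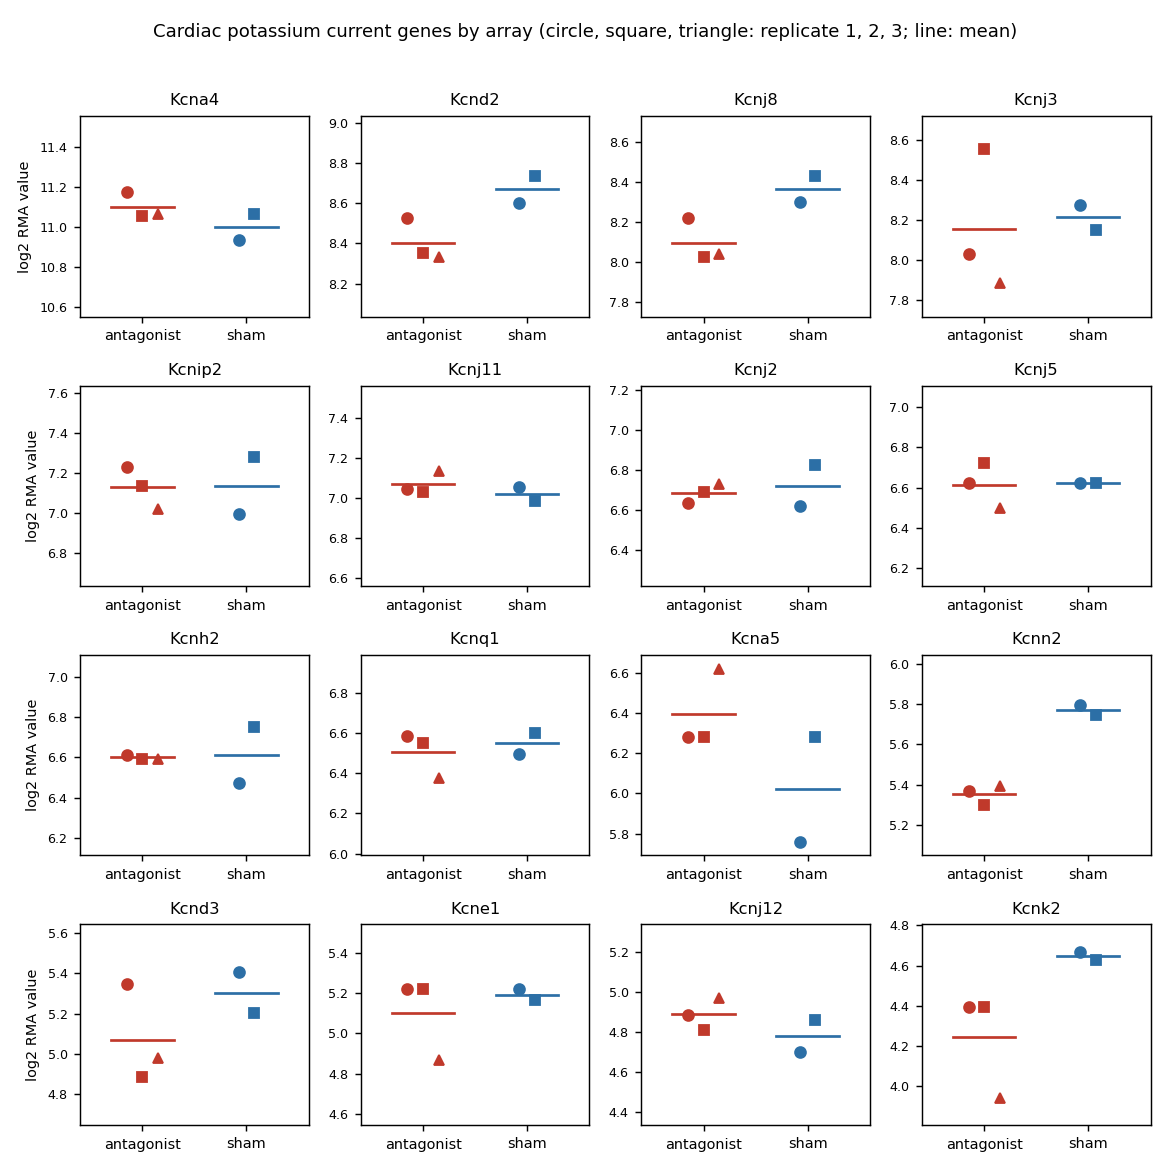
Log2 RMA value on each array for the 16 cardiac potassium current genes with a probe of their own, antagonist (n = 3) left and sham (n = 2) right. Every panel spans 1 log2 unit, lines are group means, and the groups do not overlap for Kcnd2, Kcnj8, Kcnk2 and Kcnn2.

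Among inward rectifiers, Kcnj8 was the one member of 11 tested whose groups did not overlap. It measured 8.22, 8.03 and 8.04 in the antagonist hearts, against 8.30 and 8.43 in the sham hearts. All antagonist values were lower, the nearest by 0.08, and the log2 difference was -0.27 ± 0.08 (95% interval -0.51 to -0.03, limma adjusted p 0.64, exact permutation p 0.2). Abcc9, its neighbour on the chromosome, encodes the sulfonylurea receptor SUR2 of the same channels. It measured 10.80, 10.76 and 10.78 in the antagonist hearts, against 10.80 and 10.91 in the sham hearts. Those groups met, and the difference was -0.07 ± 0.04, or -0.02 without sham replicate 2. Kcnj8 is a gene of pericytes and smooth muscle: the 5 pericyte markers averaged 7.33 to 7.35 on the antagonist arrays, against 7.38 and 7.48 on the sham arrays, with a median difference of -0.07 and 0 markers without overlap. The 6 smooth muscle markers averaged 6.27 to 6.46 on the antagonist arrays, against 6.36 and 6.47 on the sham arrays, with a median difference of -0.11. Myh11, the smooth muscle myosin gene, was the 1 of the 6 whose groups did not overlap, at a log2 difference of -0.10. The list was mixed: Acta2, Cnn1 and Smtn were lower with overlap, and Tagln (0.17) and Lmod1 (0.09) were higher with overlap. All 11 pericyte and smooth muscle markers were above the level filter, and the part of either cell type in the Kcnj8 values was not tested.

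Kcnj11 and Abcc8, which also lie side by side on the chromosome, showed no such gap. Kcnj11 measured 7.04, 7.03 and 7.14 in the antagonist hearts, against 7.06 and 6.99 in the sham hearts. Its neighbour Abcc8, encoding the receptor SUR1, averaged 6.59 ± 0.02 (SD, n = 3) in the antagonist hearts and 6.48 ± 0.13 (SD, n = 2) in the sham hearts. The differences were 0.05 ± 0.05 and 0.11 ± 0.07 (limma SE), and in both genes the groups overlapped. Kcnj11 stood at 0.01 without sham replicate 2 and Abcc8 at 0.01 without sham replicate 1. For the resting inward rectifier, Kcnj2 measured 6.63, 6.69 and 6.73 in the antagonist hearts, against 6.62 and 6.82 in the sham hearts. Kcnj12, the Kir2.2 pore, measured 4.88, 4.81 and 4.97 in the antagonist hearts, against 4.70 and 4.86 in the sham hearts. Neither separated the groups, with differences of -0.04 ± 0.08 and 0.11 ± 0.08. That of Kcnj12 was 0.03 without sham replicate 1 and 0.19 without sham replicate 2.

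Genes of the acetylcholine-activated channel had their highest values in the same heart. Kcnj3 measured 8.03, 8.55 and 7.88 in the antagonist hearts, against 8.27 and 8.15 in the sham hearts. Kcnj5, the Kir3.4 subunit, measured 6.62, 6.72 and 6.50 in the antagonist hearts, against 6.62 and 6.62 in the sham hearts. Both were highest on antagonist replicate 2, where the atrial markers were high too, and this channel is known mainly from atrial muscle. The differences were -0.06 ± 0.24 and -0.01 ± 0.08, or -0.26 and -0.06 without that array, where the Kcnj3 groups no longer overlapped; the part of atrial RNA in these values was not tested.

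The remaining separated groups were those of the Kv pore gene Kcnh3 and of leak and calcium-activated channel genes. Kcnh3 measured 3.71, 3.49 and 3.71 in the antagonist hearts, against 3.86 and 3.76 in the sham hearts. Its groups were 0.05 apart, and the difference of -0.17 ± 0.09 (limma adjusted p 0.64) was -0.10 without antagonist replicate 2. Kcnk2, the stretch-activated TREK-1 channel, measured 4.39, 4.39 and 3.94 in the antagonist hearts, against 4.67 and 4.63 in the sham hearts. All antagonist values were lower, antagonist replicate 3 by far the most, and the difference of -0.41 ± 0.18 (limma adjusted p 0.64) was -0.25 without that array. Of the 13 K2P genes 7 were lower and 6 higher, with a median difference of -0.03. Kcnn2, the SK2 channel, measured 5.37, 5.30 and 5.39 in the antagonist hearts, against 5.79 and 5.75 in the sham hearts. Here the groups were 0.36 apart, far more than the range within either, and the difference was -0.42 ± 0.04 (95% interval -0.53 to -0.31), or 0.748-fold. Its limma unadjusted p of 5.9e-04 was the smallest of the family and its adjusted p was 0.60, with an exact permutation p of 0.1. Of the related SK and IK genes, whose groups overlapped, Kcnn1 differed by 0.19 ± 0.10 (0.07 without sham replicate 1), Kcnn4 by -0.05 ± 0.05, and Kcnn3 read 4.67 on every array. Kcnmb2, a BK beta subunit, measured 3.53, 3.53 and 4.15 in the antagonist hearts, against 3.49 and 3.41 in the sham hearts. Its groups were 0.04 apart, and the difference of 0.29 ± 0.24 (limma adjusted p 0.67) was 0.08 without antagonist replicate 3. The mean levels of Kcnmb2 (3.62) and Kcnh3 (3.71) lay below the array medians of 3.92 to 3.95.

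**Figure D4:**
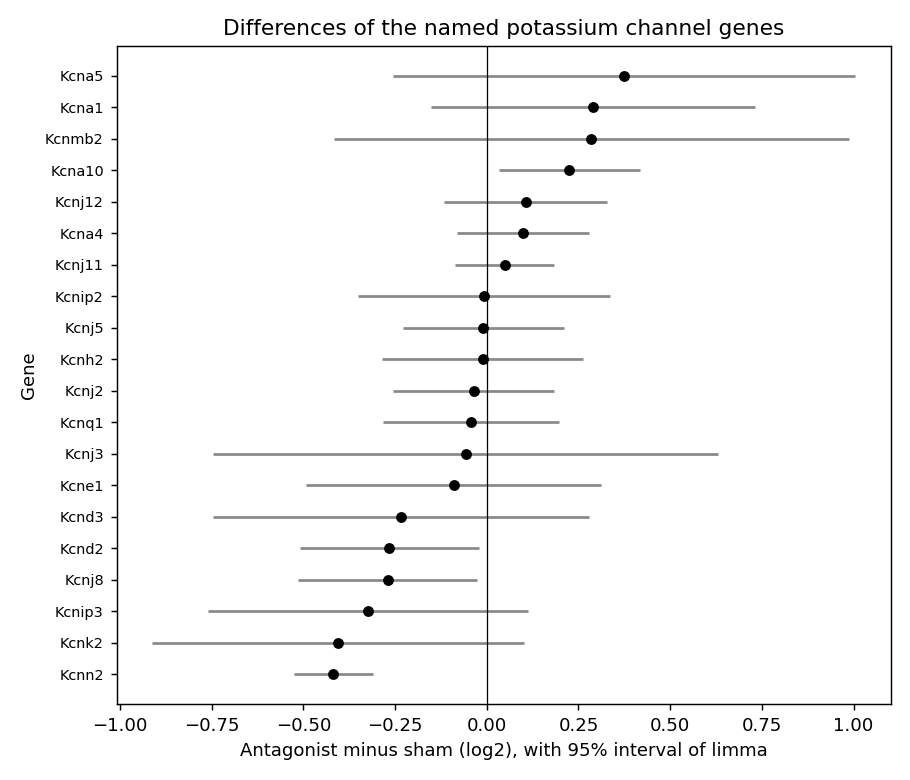
Log2 difference, antagonist minus sham, with the 95% interval of limma for the 20 named potassium channel genes. The intervals of Kcnn2, Kcnj8, Kcnd2 and Kcna10 lie on one side of 0 before adjustment over all genes, and none of the 4 passes that adjustment.

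Which array was left out decided the count of members past the adjusted threshold. It stayed at 0 of 73 when any antagonist array was left out. Without sham replicate 1 it was 4 (5.48%, against 8.62% of all genes), and without sham replicate 2 it was 10 (13.7%, against 13.5% of all genes). All members called in this way had equal values on at least 2 antagonist arrays. Equal values were common: 59 of the 73 members and 73.9% of all tested genes had fewer than 5 different values. In these fits a single sham array is assumed to vary as the antagonist arrays do. The part of equal values in the calls was not tested. Kcnh2 and Kcne4 were called under both, in the lower direction without sham replicate 1 and in the higher direction without sham replicate 2. Of the genes described by array above, only Kcnh2 was among them.

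Partners and regulators outside the family were chosen from textbook knowledge, but with earlier results of these data known, so their counts are a description. They gave 31 tested genes, of which 0 passed the adjusted threshold, 14 were higher and 17 lower. Of the 31, 5 had groups without overlap in the lower and 2 in the higher direction, beside the 6.33% and 6.19% of all genes given above. Irx3, an Iroquois factor of the conduction system, measured 6.57, 6.45 and 6.57 in the antagonist hearts, against 6.85 and 6.99 in the sham hearts. The antagonist values were all lower, by -0.39 ± 0.07 as a log2 difference (limma adjusted p 0.64). Irx4, a ventricular Iroquois factor, differed by -0.23 ± 0.09 and the ubiquitin ligase gene Nedd4 by -0.07 ± 0.02, and their groups did not overlap either. The same held for Sntb1 (-0.49 ± 0.28) and Mitf (-0.18 ± 0.10), but without sham replicate 1 each differed by only -0.09. Irx5, a repressor of Kcnd2 in mouse heart, differed by -0.16 ± 0.10 with overlap, and by -0.02 without sham replicate 1. Klf15 measured 6.56, 6.57 and 6.90 in the antagonist hearts, against 6.28 and 6.49 in the sham hearts. All antagonist values were higher, the nearest by 0.07, and the difference was 0.29 ± 0.15 (limma adjusted p 0.64), or 0.18 without antagonist replicate 3 and 0.19 without sham replicate 1.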

How the data were processed

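Total RNA of 5 hearts (300 ng each) was labelled with the WT PLUS kit for Affymetrix arrays, per the labels' protocols. The authors deposited log2 values produced by RMA, per the submitters' processing notes; RMA version, library file and build: not given in the sources used here. The values were used without further normalization. Of 41345 probes, 23521 carried a single gene symbol, 1814 carried several and 16010 were unlisted. Kcnk3 has only probes with several symbols and was not used here. The brightest probe of each symbol was kept. Genes whose mean reached the 40th percentile over probes (3.42) entered limma 3.58.1 in R 4.3.3 (two-sided, no covariates, 0.69 prior and 3 residual degrees of freedom), with adjustment over 15294 genes and a threshold of 0.05. Members and lists were chosen with earlier results of these data known. Genes given by array follow a written rule: a list of cardiac current genes, plus up to 5 members per direction with the smallest p among those whose groups do not overlap, and the partners of smallest p. Abcc8, Abcc9, Irx5, Klf15, Mitf, Sntb1, Kcnd1, Kcnh3, Kcnn1, Kcnn3 and Kcnn4 were added after their values were seen. The labels call the replicates biological. The number of arrays limits the precision. Cell type markers also covered conduction system, endothelium, fibroblast, macrophage, neuron, Schwann cell and skeletal muscle, whose median differences lay between -0.14 and 0.05. Promoters come from RefSeq (GRCm38.p6), matched by gene identifier; the array values carry no build. The test was also run on simulated normal values, which hold no equal values and had changes larger than any difference of a tested member. That run therefore cannot show how the test performs on values and differences such as these.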

Additional observations from a re-analysis of the deposited data

How the results depend on the processing

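The count of 0 potassium channel genes past the adjusted threshold held under every alternative tried except the loss of a sham array: over the single-array omissions it ran from 0 to 10 for the members and from 0 to 2058 for all genes (0 at its lowest, with any antagonist array left out). At an unadjusted limma p under 0.05 there were 4 members. The median log2 difference of the members depended on the setting and ran from -0.0801 to 0. It was -0.0032 with no level filter, -0.0297 with the filter at the 60th percentile and -0.0124 after a second quantile normalization. With array weights it was -0.0053, with the replicate block 0 and with any single array left out 0. Over the 14 members with 5 different values it was -0.0801, where all genes with 5 different values stood at 0.0052. Members without overlap between the groups, counted with single arrays left out (chosen after seeing the data), numbered 3 to 21 in the higher and 6 to 20 in the lower direction; a comparison with 1 sham array separates more easily by construction. Of 20 named genes, 12 kept their sign under every alternative, among them Kcnn2, Kcnj8 and Kcnd2. This was partly fixed in advance. Where the groups do not overlap, as in these genes, leaving out an array cannot reverse the sign. Settings that change only the level filter or the variance estimate leave the difference as it was. The other 8 had small differences that changed sign. With the replicate block the differences were 0.047 for Kcnip2, 0.020 for Kcnq1, 0.028 for Kcne1, 0.079 for Kcnj3 and 0.050 for Kcnj5. The second probe of Kcna4 gave -0.069. With single arrays left out the ranges were -0.150 to 0.137 for Kcnip2, -0.097 to 0.020 for Kcnq1, -0.150 to 0.028 for Kcne1, -0.152 to 0.129 for Kcnh2, -0.138 to 0.067 for Kcnj2, -0.255 to 0.079 for Kcnj3 and -0.063 to 0.050 for Kcnj5; the cause was not tested. Deviations from the group means of same-numbered replicates had correlations of -0.108 and 0.027 over 15294 genes. With 2 sham arrays the sham deviations mirror each other, so these correlations cannot settle whether the numbers pair the hearts. The replicate block changed no call. No detection calls were used, and the median member level of 4.19 lay close to the array medians of 3.92 to 3.95.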
